A study of Mus musculus with 2 samples.

Results

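The immunoglobulin light chain variable (V) segments described here are the loci of the deposited gene table with biotype IG_V_gene and a symbol starting with Igkv (kappa) or Iglv (lambda). The rule gave 103 of the 55246 loci of the table, 100 Igkv segments in the kappa locus on chromosome 6 and 3 Iglv segments in the lambda locus on chromosome 16. The table also lists 60 kappa or lambda V loci of pseudogene biotype, which the rule leaves out and which held 40 reads in one library and 25 in the other. The series holds 2 RNA-seq libraries of Treg cells, the Foxp3-dependent regulatory CD4 T cells, from the colon lamina propria of female mice. The control library is labelled WT, and the other, labelled Exon2KO here, carries the Foxp3∆2 allele, which lacks exon 2 of Foxp3. The mouse strain, age, any treatment, the sort used to purify the cells and the number of mice behind a library are not given in the sources used here. With 1 library per genotype no test of the genotypes is possible, and every interval below is a 95% interval of counting error only.

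An antibody light chain is encoded by a V segment that B cell precursors join to a J segment by DNA recombination, and the joined exon is spliced to a constant (C) exon. A B cell keeps in general 1 productive light chain, of kappa or of lambda type, and the plasma cells that descend from it secrete large amounts of that chain. The V segment carries the first part of the antigen-binding site, up to the cysteine that opens the third complementarity-determining region (CDR3), and the few germline bases after that cysteine are the V segment's own part of CDR3. In mice kappa is the main type, and the lambda locus has few V segments. Iglv1 joins the Iglj1-Iglc1 and Iglj3-Iglc3 clusters, and Iglv2 and Iglv3 mainly Iglj2-Iglc2. T cells rearrange T cell receptor genes instead, and light chain V transcripts are as a rule made by cells of the B lineage.

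The germline 3′ ends of the V exons show how far the leading segments differ in their part of CDR3. They are given for the 12 segments with the highest level per base of length and for the other 2 lambda segments, read 5′ to 3′ on the coding strand from the last cysteine codon in frame (in capitals) to the end of the V exon, from GENCODE M21 transcripts on the mouse build GRCm38.
Iglv1: TGTgctctatggtacagcaaccatttc
Igkv6-15: TGTcagcaatataacagctatcctct
Igkv1-117: TGCtttcaaggttcacatgttcctcc
Igkv10-96: TGCcaacagggtaatacgcttcctcc
Igkv6-23: TGTcagcaatatagcagctatcctct
Igkv8-30: TGTcagcaatattatagctatcctcc
Igkv1-110: TGCtctcaaagtacacatgttcctcc
Igkv1-135: TGCtggcaaggtacacattttcctca
Igkv6-17: TGTcagcaacattatagtactcctcc
Igkv4-57-1: TGCcagcagtacagtggttacccactca
Igkv10-94: TGTcagcagtatagtaagcttcctcc
Igkv3-4: TGTcagcaaagtaatgaggatcctcc
Iglv2: TGTgctctatggtacagcacccatttc
Iglv3: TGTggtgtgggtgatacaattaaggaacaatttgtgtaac

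The kappa ends shared features that overlapped only in part. In 61 of the 100 kappa segments the codon after the cysteine was CAA or CAG, both of which encode glutamine, and these segments held 66.8% of the WT kappa reads and 66.4% of the Exon2KO kappa reads. The stretch from the cysteine codon to the end of the exon was 26 bases long in 67 segments, which held 80.0% of the WT kappa reads and 83.2% of the Exon2KO kappa reads. In 64 of these 67 a proline codon (CCN) ended 2 bases before the exon did. Both features, a 26-base end and CAA or CAG after the cysteine, were present in 36 segments, with 51.6% and 52.7% of the kappa reads. A longer end of 28 bases was found in 21 segments, with 15.9% and 14.1% of the kappa reads. The ends of Iglv1 and Iglv2 were 27 bases long and that of Iglv3 was 40 bases long.

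Light chain V segments took 119013 of the 16281133 reads that the WT library had on genes and 110507 of the 15412425 in Exon2KO. These sums were 0.731% (0.727% to 0.735%) and 0.717% (0.713% to 0.721%) of all reads. Relative to library sizes scaled by TMM, a method that sets the bulk of genes to no change, the Exon2KO to WT ratio of the sum was -0.13 on the log2 scale (-0.15 to -0.12). The 113 heavy chain V segments held 45207 and 36632 reads, a log2 ratio of -0.33 (-0.35 to -0.31). In bulk RNA, fewer cells of a type and less RNA per cell cannot be told apart.

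Kappa V segments made up the larger part of the light chain V reads in both libraries, and lambda had the larger share in Exon2KO. Kappa V segments held 102074 WT reads and 91591 Exon2KO reads, a log2 ratio of -0.18 (-0.20 to -0.17). Lambda V segments held 16939 and 18916 reads, a log2 ratio of 0.13 (0.10 to 0.16). The lambda share was thus 14.2% of light chain V reads in WT (14.0% to 14.4%) and 17.1% in Exon2KO (16.9% to 17.3%). These counting intervals do not overlap, but how far the share varies between WT libraries is unknown. As FPKM, reads per base of length and library size, the lambda shares were 13.6% and 16.4%.

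The constant genes gave the same order at a lower level. Igkc, the single kappa constant gene, held 447269 WT reads and 400030 Exon2KO reads, and the lambda constant genes together 28142 and 28893. The lambda share of constant gene reads was 5.92% in WT (5.85% to 5.99%) and 6.74% in Exon2KO (6.66% to 6.81%). The kappa V FPKM values summed to 0.329 of the Igkc FPKM in WT and to 0.330 in Exon2KO. For lambda the V sum was 0.740 and 0.789 of the constant gene sum, so the V reads gave lambda a larger share than the constant gene reads did in either library.

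Within lambda, Iglv1 was higher in Exon2KO and Iglv2 lower. Iglv1 was the segment with the most reads of all 103, with 14884 WT reads and 17947 Exon2KO reads, a log2 ratio of 0.24 (0.21 to 0.27). It held 12.5% of all light chain V reads in WT (12.3% to 12.7%) and 16.2% in Exon2KO (16.0% to 16.5%). Its level was 2414 FPKM in WT and 2885 FPKM in Exon2KO. Iglv2 held 1694 WT reads and 563 Exon2KO reads, a log2 ratio of -1.61 (-1.76 to -1.48). Among lambda V reads the share of Iglv1 was 87.9% in WT and 94.9% in Exon2KO, and that of Iglv2 was 2.98% in Exon2KO (2.74% to 3.23%) and between 9.56% and 10.5% in WT. Iglv3 held 361 and 406 reads, and the interval of its log2 ratio, -0.07 to 0.35, spanned no change.

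Iglc1 and Iglc3 were higher in Exon2KO, as Iglv1 was, and Iglc2 was lower, as Iglv2 was but Iglv3 was not. Iglc1 held 20880 WT reads and 22570 Exon2KO reads, a log2 ratio of 0.09 (0.06 to 0.11). Iglc3 held 1993 and 2500 reads, a log2 ratio of 0.30 (0.21 to 0.39). Iglc2, the usual partner of Iglv2 and Iglv3, held 5268 and 3823 reads, a log2 ratio of -0.49 (-0.55 to -0.43). Its share of lambda constant reads was 18.7% in WT and 13.2% in Exon2KO. The J segments, which are very short, held 112 and 115 reads over the 5 Igkj and 173 and 163 over the 5 Iglj loci. Iglj1 took most of the latter, with 151 WT reads and 144 Exon2KO reads, and Iglj2 was at 0 in both. The Iglj2 locus lies inside the Iglc2 locus on the same strand, and how reads over both were counted is not given. The 0 of Iglj2 therefore cannot be read as lack of use.

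Iglv1 and Iglv2 are near copies, and how the counting treated reads that match both is not given in the sources used here. Their V exons, of 305 bases each, matched at 97.0% of positions, with 9 substitutions and no gap. The last 300 bases of each are shown because so few bases tell these segments apart; capitals mark the 8 of the 9 differing bases that fall in this stretch. The Iglv1 stretch is chr16:19085017-19085316 and the Iglv2 stretch chr16:19260401-19260700, both on the minus strand of GRCm38.
Iglv1: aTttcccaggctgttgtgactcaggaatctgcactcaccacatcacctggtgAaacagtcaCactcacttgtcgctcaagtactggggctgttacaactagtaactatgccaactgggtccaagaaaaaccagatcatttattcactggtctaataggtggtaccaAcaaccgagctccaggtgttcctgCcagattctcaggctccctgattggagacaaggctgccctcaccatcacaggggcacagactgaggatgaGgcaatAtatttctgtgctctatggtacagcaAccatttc
Iglv2: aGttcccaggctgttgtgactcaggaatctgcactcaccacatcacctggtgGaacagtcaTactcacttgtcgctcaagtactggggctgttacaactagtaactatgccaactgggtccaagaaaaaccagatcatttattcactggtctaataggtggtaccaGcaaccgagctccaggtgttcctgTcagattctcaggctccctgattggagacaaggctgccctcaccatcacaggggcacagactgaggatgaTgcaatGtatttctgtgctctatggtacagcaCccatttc

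The kappa reads were spread over many segments, with a short list of leaders that both libraries shared. Of the 10 light chain V segments with the most reads in each library, kappa and lambda together, 9 were the same, and Iglv1 was among these 9. Igkv6-15 was the leading kappa segment, with 6631 WT reads and 6679 Exon2KO reads, or 5.57% and 6.04% of light chain V reads. Its level was 1212 FPKM in WT and 1210 FPKM in Exon2KO. By level per base of length, next in WT came Igkv6-23 at 867 FPKM, Igkv8-30 at 857 FPKM and Igkv1-117 at 832 FPKM, although by reads Igkv1-117 was ahead of both. The read shares of Igkv6-23 (4.13% to 4.35%) and Igkv8-30 (4.07% to 4.29%) overlapped in their intervals, so their order was not resolved. In Exon2KO Igkv1-117 followed Igkv6-15, at 1017 FPKM, ahead of Igkv10-96 at 913 FPKM and Igkv1-110 at 793 FPKM.

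Some leaders had a larger share in Exon2KO and others a smaller one, none by 2-fold. Igkv1-117 held 5300 WT reads and 6536 Exon2KO reads, Igkv10-96 held 4152 and 5215, and Igkv1-110 held 4179 and 5060, with log2 ratios of 0.28, 0.30 and 0.25. Igkv4-57-1 held 2317 and 3180 reads, a log2 ratio of 0.43 (0.35 to 0.51). On the other side, Igkv6-23 held 5045 and 4179 reads and Igkv8-30 held 4973 and 4082, with log2 ratios of -0.30 and -0.31. Igkv1-135, the segment of this group farthest from the J segments, held 4511 and 3047 reads, a log2 ratio of -0.59 (-0.66 to -0.53). Igkv10-94 held 2600 and 1728 reads, a log2 ratio of -0.62 (-0.71 to -0.53). Igkv6-17 held 3858 and 3338 reads and Igkv3-4 held 2480 and 1939, with log2 ratios of -0.24 and -0.38.

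**Figure D1:**
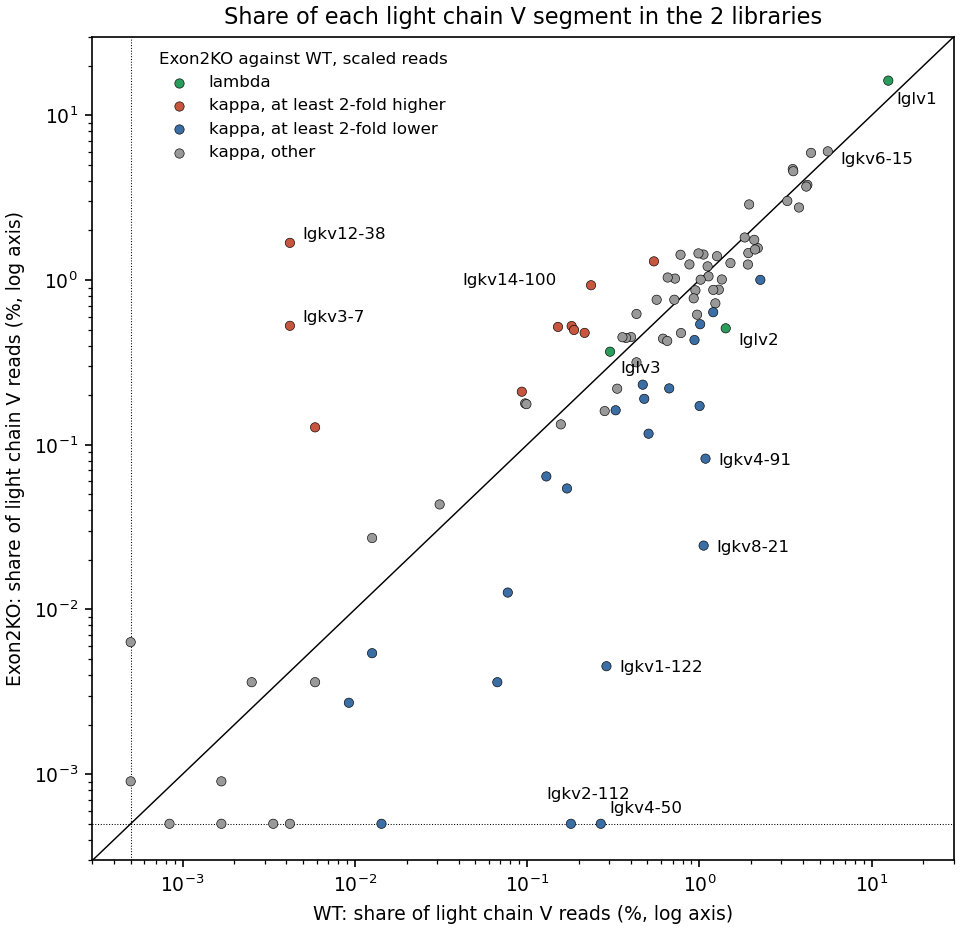
Share of light chain V reads of each segment in WT (x axis, %, log scale) and Exon2KO (y axis, %, log scale), for the 94 segments with a read; the line marks equal shares, and segments at 0 in a library are set on the dotted lines. Leading segments such as Iglv1 and Igkv6-15 lie near the line, and the segments farthest from it, such as Igkv12-38 and Igkv4-50, are at or near 0 in 1 library. Red and blue mark kappa segments at least 2-fold higher or lower by scaled reads; lambda segments are green whatever their ratio.

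Usage was less even in Exon2KO than in WT. The effective number of segments, which is the number of equally used segments that would give the same Shannon entropy, was 44.8 in WT and 38.5 in Exon2KO. The inverse Simpson index, which weights the leaders more, was 27.7 and 20.8. The 10 most read segments held 47.2% of light chain V reads in WT and 53.6% in Exon2KO. In WT 12 segments made up 50% of the reads and 45 made up 90%, against 9 and 43 in Exon2KO. For kappa alone the effective number was 48.7 in WT and 44.8 in Exon2KO, so the gap between the libraries was smaller once the lambda segments were left out. The heavy chain V segments had the same order, with effective numbers of 51.4 and 47.6.

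**Figure D2:**
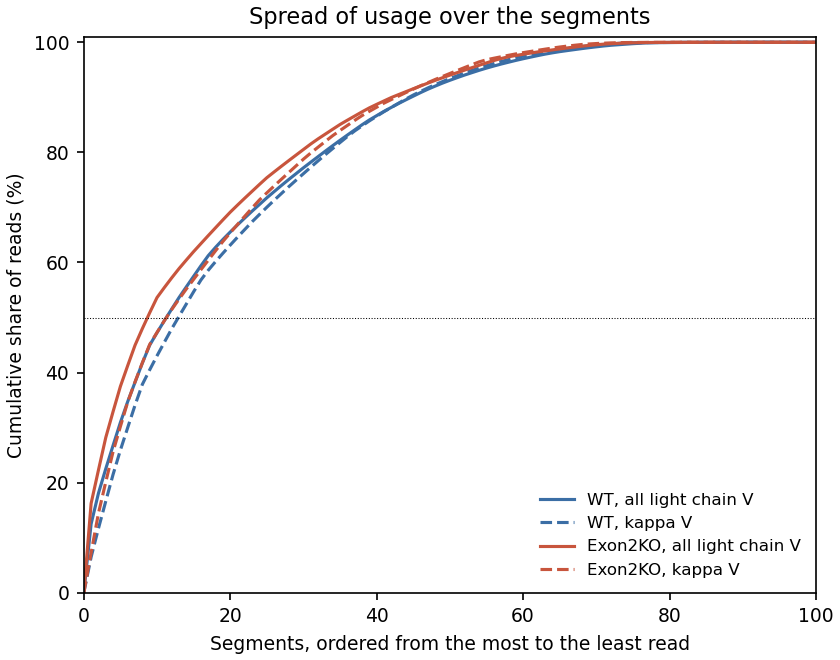
Cumulative share of reads (y axis, %) over segments ordered from the most to the least read (x axis), for all light chain V segments (solid) and kappa alone (dashed) in WT and Exon2KO. The solid Exon2KO curve reaches 50% (dotted line) at 9 segments and the solid WT curve at 12.

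Of the 103 segments, 92 had a read in WT and 87 in Exon2KO. At the depth of the smaller library 91.9 segments with a read would be expected in WT. Reads were at 0 in both libraries for 9 segments, Igkv1-131, Igkv1-132, Igkv1-35, Igkv3-3, Igkv4-81, Igkv4-92, Igkv8-26, Igkv8-34 and Igkv9-123. For a segment at 0, a floor of 3 reads puts the upper limit of its share at 0.00252% of the WT and 0.00271% of the Exon2KO light chain V reads. Another 8 segments had 1 to 9 reads over both libraries, and 86 had at least 10 and were compared one by one. The segments at 0 in 1 library only were 2 in WT and 7 in Exon2KO.

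The profile of usage differed between the libraries by 17.7%, the share of reads that would have to move to other segments to make the profiles equal. For kappa alone it was 18.1%, and for the heavy chain V segments 19.8%. Summed over V families it was 7.85%, but opposite differences cancel within the groups of any grouping. Whether the smaller value is particular to families was not tested. No second library of a genotype exists to say how far profiles differ within one. Across the 103 segments the reads of WT and Exon2KO had a Spearman correlation of 0.858, and across the 86 with at least 10 reads 0.777; segments of 1 library share its depth and cells and are not independent.

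A segment was counted as higher or lower when its ratio was at least 2-fold. Of the 86 segments, 10 were at least 2-fold higher in Exon2KO (11.6%) and 23 at least 2-fold lower (26.7%). Over the 17363 genes with at least 10 reads, 9.38% were at least 2-fold higher and 8.14% lower. Without regard to reads, the share of higher segments was thus near that of all genes and the share of lower segments above it. When the whole counting interval had to lie past 2-fold, 7 segments (8.14%) were higher and 16 (18.6%) lower, against 3.44% and 3.32% of all genes. The median log2 ratio of the segments was -0.38, with the middle 50% from -1.05 to 0.30, and that of all genes was 0.0035, with the middle 50% from -0.33 to 0.35. Among segments with at least 1000 reads over both libraries, 12 of 52 were past 2-fold, 3 higher (5.77%) and 9 lower (17.3%). Of the 4740 genes with as many reads, 75 were higher (1.58%) and 149 lower (3.14%), so at this depth both shares of segments were above those of genes. Of the 88 heavy chain V segments with at least 10 reads, 8 were higher and 27 lower.

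Ratios were larger for segments with few reads. The Spearman correlation of the absolute log2 ratio with the total reads was -0.55 over the 86 segments, a description in which counting error plays a part. Igkv4-63 (257 reads in WT, 528 in Exon2KO) and Igkv1-99 (111 and 232) lay just past the threshold, with log2 ratios of 1.01 and 1.02. Igkv8-19 (336 and 177) and Igkv12-98 (1475 and 798) lay just within it, at -0.94 and -0.91.

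The largest differences were segments with many reads in 1 library and almost none in the other. Igkv12-38 held 5 WT reads and 1859 Exon2KO reads, where it was at rank 13 by reads with 1.68% of light chain V reads. Its log2 ratio was 8.03 (7.29 to 10.14). Igkv3-7 held 5 and 583 reads, a log2 ratio of 6.36 (5.61 to 8.47). In the other direction, Igkv4-50 held 319 WT reads and 0 Exon2KO reads, at least 108-fold lower when the 0 is set to a floor of 3 reads; the upper end of its 95% counting interval, which allows slightly more than 3 reads, was -6.45 on the log2 scale. Igkv2-112 held 214 and 0 reads, at least 72.7-fold lower against the same floor, with an interval ending at -5.87 on the log2 scale. Igkv1-122 held 344 and 5 reads, a log2 ratio of -5.65 (-7.76 to -4.89). In all, 6 segments had at least 100 reads in 1 library and 10 or fewer in the other, 3 in each direction, or 3.49% of the 86 segments each way. Of the 17363 genes, 0.127% were one-sided in this way toward Exon2KO and 0.138% toward WT. The sixth segment, Igkv4-86 (7 and 141 reads), was named after its values were seen.

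These one-sided segments came from 5 families, with Igkv4-50 and Igkv4-86 both in Igkv4, and lay far apart along the locus. Their distances from Igkj1, the first J segment, were 779 kb for Igkv12-38, 115 kb for Igkv3-7, 1022 kb for Igkv4-50, 1812 kb for Igkv4-86, 2502 kb for Igkv2-112 and 2705 kb for Igkv1-122. The germline ends of the 5 with the largest ratios are given in the form used above, to be set beside those of the leading segments.
Igkv12-38: TGTaaacaggcttatgacgttcctcc
Igkv3-7: TGTcagcacagttgggagattcctcc
Igkv4-50: TGCcagcagtttactagttccccatcca
Igkv2-112: TGTcaacaacttgtagagtatcctc
Igkv1-122: TGCctccaagttacacatgtccctcc

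The other named segments past 2-fold had at least 27 reads in either library. Igkv14-100 held 280 WT reads and 1028 Exon2KO reads, a log2 ratio of 1.84 (1.66 to 2.05). Igkv3-1, the segment nearest to the J segments, held 180 and 574 reads, a log2 ratio of 1.64 (1.40 to 1.90). Igkv16-104 held 216 and 581 reads and Igkv2-109 held 223 and 550, with log2 ratios of 1.39 and 1.27. Among the lower segments, Igkv8-21 held 1261 WT reads and 27 Exon2KO reads, a log2 ratio of -5.47 (-6.18 to -5.02). Igkv4-91 held 1293 and 91 reads, a log2 ratio of -3.83 (-4.18 to -3.55). Igkv4-61 held 1195 and 190 reads, a log2 ratio of -2.67 (-2.91 to -2.46). These 3 were each near 1% of the WT light chain V reads, at 1.06%, 1.09% and 1.00%, and at 0.0244%, 0.0823% and 0.172% of those of Exon2KO.

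**Figure D3:**
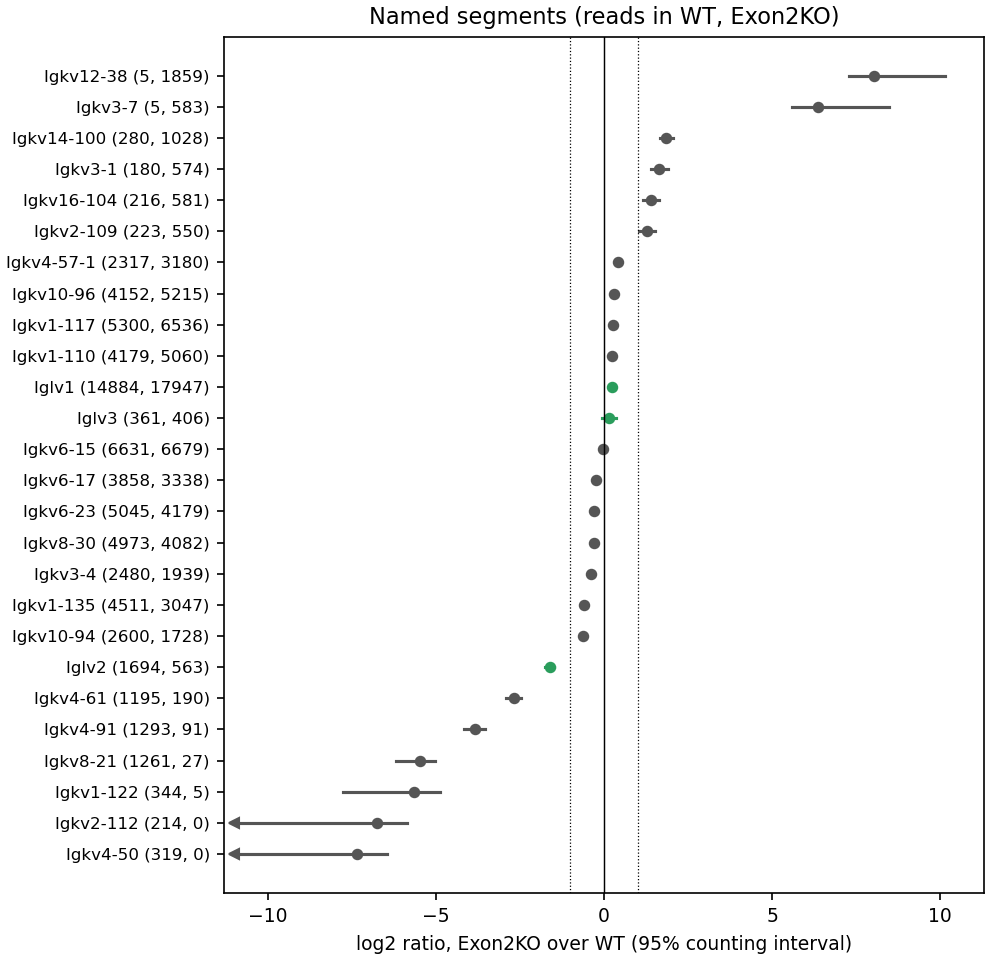
Log2 ratio of scaled reads, Exon2KO over WT (x axis), of the 26 named segments, with 95% counting intervals as bars; the reads in WT and Exon2KO stand beside each name, green marks lambda, and dotted lines mark 2-fold. Arrowheads mark intervals with no lower end, for Igkv4-50 and Igkv2-112, which had 0 reads in Exon2KO. The 12 segments with the highest mean per-length share, from Igkv10-94 to Igkv4-57-1, sit within 2-fold.

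V families are the groups of related sequence given by the first number in the symbol, and their sums were higher in Exon2KO for some and lower for others. The 9 Igkv6 segments held 17.0% of the WT and 17.8% of the Exon2KO light chain V reads, and the 10 Igkv1 segments 12.7% and 13.7%. Within Igkv6, 1 segment, Igkv6-25 (649 and 1435 reads, named after its values were seen), was at least 2-fold higher and none lower. The 26 Igkv4 segments, the largest family, held 14.9% and 12.6%, a log2 ratio of -0.38 (-0.41 to -0.35), with 2 of the 20 compared at least 2-fold higher and 7 lower (9.38% and 8.14% of all genes). Igkv8 held 7.16% and 5.72%, a log2 ratio of -0.46 (-0.50 to -0.41). The 2 Igkv17 segments held 4.19% and 2.46%, a log2 ratio of -0.90 (-0.97 to -0.83), and the 4 Igkv9 segments 2.42% and 1.51%, a log2 ratio of -0.81 (-0.90 to -0.72). Igkv19, a family of 1 segment, had a log2 ratio of -1.04 (-1.19 to -0.90). On the other side, the 4 Igkv14 segments held 2.25% and 2.89%, a log2 ratio of 0.23 (0.16 to 0.30), and the 2 Igkv13 segments 1.73% and 2.29%, a log2 ratio of 0.27 (0.19 to 0.36). Smaller families were also higher, with log2 ratios of 0.30 (0.12 to 0.49) for Igkv2, 0.73 (0.40 to 1.08) for Igkv11 and 1.39 (1.17 to 1.63) for Igkv16, the last 2 of 1 segment each. The Igkv14 and Igkv2 sums hold segments past 2-fold in opposite directions. Igkv14-100 (280 and 1028 reads) was higher and Igkv14-130 (203 and 60, named after its values were seen) lower. Igkv2-109 (223 and 550) was higher and Igkv2-112 (214 and 0) lower. Igkv12 held 5.13% and 5.52%, although 1 of its 6 segments was at least 2-fold higher and 1 lower. The Igkv6, Igkv1, Igkv3 and Igkv12 families had log2 ratios between -0.07 and -0.02, which became positive when total reads replaced TMM, so no direction is given for them.

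Kappa segments were read along the whole locus, which spans about 3167 kb from the farthest segment to Igkj1. Of the 100 segments, 38 lie on the plus strand, that of Igkj1 and Igkc, and join by deletion of the DNA between, and 62 on the minus strand, which join by inversion. The 33 segments farthest from the J segments held 37.2% of kappa reads in WT and 36.6% in Exon2KO. The 33 middle segments held 25.8% and 23.7%, and the 34 nearest 37.0% and 39.7%. The log2 ratios of these sums were -0.21 for the far, -0.31 for the middle and -0.08 for the near group, the last of which became 0.03 with total reads in place of TMM. Plus strand segments held 38.7% of kappa reads in WT and 40.9% in Exon2KO. By segment, 7 of the 33 plus strand segments compared were at least 2-fold higher and 8 lower, and 3 of the 50 minus strand segments were higher and 14 lower, beside 9.38% higher and 8.14% lower among all genes; the difference between the strands was not tested. The Spearman correlation of FPKM with the distance to Igkj1 over the 100 segments was -0.03 in WT and -0.10 in Exon2KO.

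**Figure D4:**
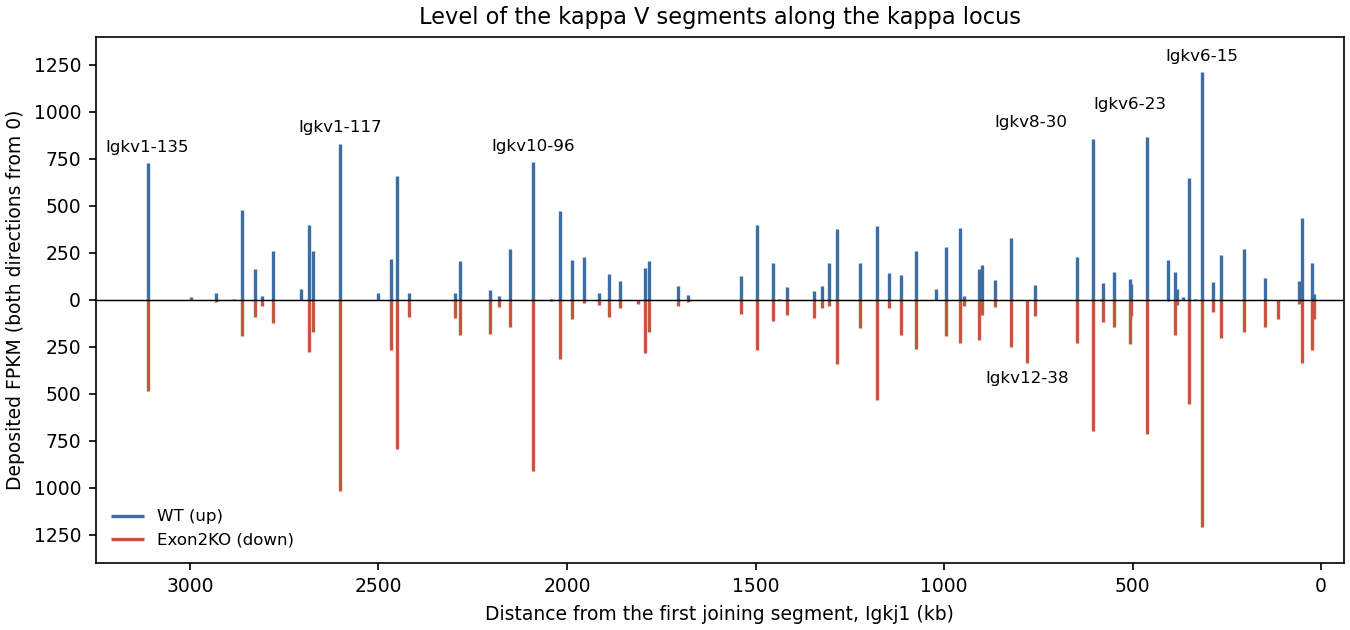
Deposited FPKM of the 100 kappa V segments against their distance from Igkj1 (x axis, kb, the J segments at the right), with WT drawn up and Exon2KO drawn down from 0. High segments such as Igkv1-117, Igkv10-96 and Igkv6-15 stand far apart along the locus, and Igkv12-38, at 779 kb, has a bar in Exon2KO with almost none in WT.

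Many segments have a close relative, which bears on how surely reads can be placed. The V exon of a segment matched its nearest other light chain V exon, pseudogenes included, at a median of 94.9% (56.2% for Iglv3 to 99.0%), with differences counted as the edit distance over the longer exon. The nearest exon belonged to the same family for 97 of the 103. At 98% or more were 6 segments, the pairs Igkv5-43 and Igkv5-45 (99.0%, 3 substitutions), Igkv6-20 and Igkv6-29, and Igkv3-5 and Igkv3-10, which were chosen by this identity and not by their reads. Igkv5-43 held 1116 WT reads and 478 Exon2KO reads and Igkv5-45 held 118 and 195, so the members of that pair differed in opposite directions. The values of these 6 segments are uncertain, since the counting could split or drop their reads. The 9 segments at 0 in both libraries had nearest relatives at 83.2% to 97.8%, with a median of 92.2%.

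Igkv3-7 also has a near relative, Igkv3-12, which matched it at 96.8% and held 1545 WT reads and 966 Exon2KO reads. How reads were divided between these segments in either library was not tested. The last 300 of the 310 bases of both V exons are shown, with capitals for the bases that the alignment of the pair set apart. That alignment had 8 substitutions and 2 gap bases. Between the gaps the capitals therefore do not mark every site that differs when the lines are compared position by position. Igkv3-7 is chr6:70607737-70608036 and Igkv3-12 chr6:70518550-70518849, both on the plus strand.
Igkv3-7: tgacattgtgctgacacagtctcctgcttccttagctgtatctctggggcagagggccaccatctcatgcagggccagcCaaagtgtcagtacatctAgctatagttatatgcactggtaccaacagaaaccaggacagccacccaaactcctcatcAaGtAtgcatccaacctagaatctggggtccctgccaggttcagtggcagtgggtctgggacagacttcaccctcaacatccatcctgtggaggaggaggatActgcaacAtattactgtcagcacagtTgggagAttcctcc
Igkv3-12: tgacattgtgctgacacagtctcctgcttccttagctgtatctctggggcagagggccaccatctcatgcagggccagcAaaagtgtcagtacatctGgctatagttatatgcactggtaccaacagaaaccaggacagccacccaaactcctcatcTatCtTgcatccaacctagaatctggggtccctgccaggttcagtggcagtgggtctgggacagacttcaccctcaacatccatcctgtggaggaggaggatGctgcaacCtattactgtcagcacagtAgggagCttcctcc

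Igkv12-38 had no such relative, since its nearest V exon, that of Igkv12-44, matched at 85.6%. Of the other named segments at the low end or at 10 or fewer reads in 1 library, Igkv2-112 matched its nearest exon at 84.0%, Igkv4-91 at 88.0%, Igkv4-86 at 89.1%, Igkv4-50 at 90.8%, Igkv8-21 at 92.4%, Igkv1-122 at 93.3% and Igkv4-61 at 96.7%. Only Iglv1 and Igkv2-137 overlapped another locus of the table, and the antisense locus over Iglv1, 2010309G21Rik, held 8 WT reads and 6 Exon2KO reads.

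The marker genes of both libraries were those of Treg cells together with those of plasma cells. The 5 Treg markers (Foxp3, Cd3e, Cd4, Il2ra and Ctla4) summed to 6312 CPM (reads scaled to a common library size) in WT and 10394 CPM in Exon2KO, and only Foxp3, with 6991 and 20946 reads, was at least 2-fold higher. Most of that sum was Ctla4, an inhibitory receptor, at 5056 CPM in WT and 8270 CPM in Exon2KO, while the log2 ratio was 0.20 for Cd4, 0.0032 for Cd3e and -0.35 for Il2ra (-0.43 to -0.27). The 9 plasma cell markers summed to 8650 CPM in WT and 8252 CPM in Exon2KO, with 1 of 9, Sdc1 (510 and 1213 reads), at least 2-fold higher and none lower, beside 9.38% and 8.14% of all genes. Within 2-fold the markers lay on both sides. Log2 ratios were 0.86 (0.74 to 0.99) for Irf4, 0.72 (0.57 to 0.86) for Prdm1 and 0.16 (0.12 to 0.20) for Xbp1. They were -0.41 (-0.55 to -0.27) for Derl3, -0.35 (-0.45 to -0.26) for Mzb1, -0.30 (-0.58 to -0.02) for Tnfrsf17 and -0.11 (-0.12 to -0.09) for Jchain. For Fkbp11 the log2 ratio was -0.18, and its interval, -0.60 to 0.23, spanned no change. Most of the plasma cell sum was Jchain, the joining chain of secreted IgA and IgM, with 120089 and 113723 reads. Among B cell markers, Cd79a and Cd79b, the signalling chains of the B cell receptor, held 1244 and 685 WT reads and 990 and 508 Exon2KO reads. Blk, a Src family kinase, was at least 2-fold higher (44 and 160 reads), Ms4a1, which encodes CD20, and Cd22 were at least 2-fold lower (47 and 10, and 19 and 6), and Fcer2a held 16 reads in each library. Pax5, a B cell transcription factor that plasma cells switch off, held 1 and 3 reads. Of the markers of B cell precursors, in which light chains rearrange, Rag1, Rag2, Igll1 and Dntt were at 0 in both libraries and Vpreb1 held 9 and 4 reads. The part of these cell types in the values of the V segments was not tested.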

How the data were processed

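RNA-seq of 1 WT and 1 Exon2KO library of colon lamina propria Treg cells was analysed. A Qiagen kit served for RNA and an NEBNext Ultra kit for the libraries, per the labels' protocols. The submitters' processing notes name the build mm10 (GRCm38), HISAT2 2.0.5, StringTie 1.3.3b, featureCounts 1.5.0-p3 and DESeq2 1.16.1, without their roles. Raw counts, used here as the authors deposited them, were the main input. The authors also deposited FPKM values, which in each library are a constant times count over gene length. FPKM served to compare levels between segments. A further 2 per-sample columns, scaled counts, were not used. Whether counting used strand, and how reads matching several loci were treated, is not given in the sources used here.

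Library sizes of 16281133 (WT) and 15412425 (Exon2KO) reads were scaled by TMM (edgeR 4.0.16, R 4.3.3; factors 0.964 and 1.04). Log2 ratios have a prior count of 2. Intervals are Clopper-Pearson for ratios and Wilson for shares above 0, at 95%, and cover counting error only (for a segment at 0 the limit given is a floor of 3 reads), since reads lack molecular identifiers and need not stem from independent molecules. With 1 library per group no p-value was computed, and segments whose reads summed to 10 or more were counted when their ratio was at least 2-fold. Shares, spread and distance were computed with numpy 2.4.6 and pandas 2.3.3 and checked on simulated data. V exons came from GENCODE M21, where all 103 segments had identical coordinates; exons were aligned with edlib 1.3.9.post1.

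Segments named in the text are the 12 with the highest mean per-length share, the 3 Iglv, and, among those with at least 200 reads, the 6 highest and 6 lowest ratios; others are named where a count or an identity singles them out. The segments and lists were chosen with earlier results of these data known. Alternatives covered scaling, minimum reads, prior count, length, pseudogene rows, family sums and close copies. Promoters and recombination signals were not analysed here. One marker gene of the lists is not reported here.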

Additional observations from a re-analysis of the deposited data

How the results depend on the processing

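With total reads in place of TMM log2 ratios shifted by 0.106 (less for segments with few reads in 1 library, where the prior count weighs more), and the ratio became -0.028 for all light chain V, -0.077 for kappa V and 0.24 for lambda V reads. With DESeq2 size factors these were -0.12, -0.17 and 0.15, so each kept its direction. TMM without immunoglobulin genes moved none beyond its counting interval. The count of segments past 2-fold ranged from 7 to 11 higher and from 16 to 26 lower over 9 alternatives, within 1.5 times of 10 and 23 in each; leaving out segments at least 98% identical to another, chosen after seeing the data, gave 10 and 21. The lambda share was 13.6% and 16.4% per base of length and 5.92% and 6.74% from constant gene reads. The effective number of segments in WT and Exon2KO was 45.6 and 39.4 per base of length, 50.2 and 46.0 without Iglv1, and 48.7 and 44.8 for kappa alone. The usage distance was 17.8% per base of length, 18.4% without Iglv1, 7.85% by family and 17.4% without the close copies. Of the 52 shares of named segments, 15 left their counting interval per base of length, by factors of 0.919 to 1.07, and none did with pseudogene rows. No paired analysis was possible because there is only 1 library of a genotype. The depth resolves shares down to 0.00252% in WT and 0.00271% in Exon2KO. Spread between libraries of a genotype, which no alternative here measures, limits every comparison.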
